A study of Homo sapiens with 6 samples.

Results

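The SLC25 genes encode the mitochondrial carrier family, and they were compared between SW620 cells labelled as carrying a knockdown vector against DNM1 and SW620 cells with a control vector. Every gene of the deposited count table named SLC25A followed by a number was taken, which gave 48 of 60835 gene names. Of these, 39 passed the filter on low counts and were tested, among 16744 genes tested in all. The other 9 members had 0 to 8 reads in every library and are described by their counts.

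SW620 is an established human colon cancer line that was derived from a lymph node metastasis. The groups were cells labelled shDNM1 (genotype DNM1 knockdown, batch_B, 3 libraries) and cells labelled shControl (genotype WT, batch_A, 3 libraries), both grown in high-glucose medium with serum. The knockdown is described as stable. The series title concerns dynamin 1, a GTPase that cuts vesicles from the plasma membrane, and PI3K/Akt signalling in colorectal cancer. Because batch_B held the shDNM1 libraries and batch_A the shControl libraries, batch and vector cannot be told apart in any value given here. Nothing in the labels tells whether the replicates were separate cultures, so the p-values reflect the spread among 3 libraries a group, possibly only technical. The labels name no hairpin sequence and do not say whether the cells were clones or pools. Gene coordinates are those of the deposited table, on GRCh38.

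Mitochondrial carriers are nuclear-encoded proteins that sit mostly in the inner mitochondrial membrane, which is closed to charged metabolites. They exchange ADP for ATP, bring in phosphate, and move citrate, malate, amino acids, cofactors and iron between the matrix and the cytosol. Most bind their substrate in a single central site that opens to the cytosol and the matrix in turn. Cancer cells draw on them for citrate export, for the malate and aspartate shuttle, and for glutamate and glycine supply.

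Library totals ran from 12844534 to 13537519 counts. On log2 CPM, libraries of a group had a Pearson correlation of 0.986 or more, and those of different groups 0.975 or less. DNM1 itself had 125.8, 97.8 and 125.5 CPM in the libraries labelled shDNM1, against 126.7, 126.9 and 133.4 CPM in shControl. The lowest shDNM1 library was replicate 2, and shDNM1 replicates 1 and 3 lay only just below the lowest shControl value. The log2 fold change was -0.15 (SE 0.0829, adjusted p 0.189, edgeR quasi-likelihood test). The exact two-sided permutation test gave p = 0.1, the smallest that 3 libraries against 3 allow. Without shDNM1 replicate 1 the log2 fold change was -0.20 (adjusted p 0.0399), and it was -0.20 to -0.04 over all libraries left out in turn. A clear drop in DNM1 mRNA was therefore not detected, and the group is called by its label throughout. Of 10 colon epithelial markers, CDX1 was at 0, and KRT20 and CDH17 were near 0. In this list 5 were higher and 1 lower, where 31.9% of all tested genes were called. Summed over the 10 markers, mostly the keratins KRT8, KRT18 and KRT19, the level was 9917 to 11230 CPM in shDNM1 libraries. In shControl libraries the sum was 8557 to 9350 CPM. These keratins and CDH1 were higher, as was CDX2 at 2.47-fold, and EPCAM was lower at 0.886-fold (adjusted p 0.0288), while VIL1 was not called. Summed fibroblast markers were 42.6 to 57.2 CPM in shDNM1 and 31.3 to 38.7 CPM in shControl libraries, with COL3A1 at 0 and COL1A2 and DCN near 0. PDGFRB (2.66-fold, adjusted p 0.000661) and LUM (1.39-fold, 0.0121) were called higher, and COL1A1 was not called (log2 0.10, adjusted p 0.643). Summed leukocyte markers were 3.18 to 4.94 CPM in shDNM1 and 0.771 to 1.55 CPM in shControl libraries, with CD3E at 0 and PTPRC and CD68 near 0, and nearly the whole sum was CSF1R, called higher at 3.51-fold (adjusted p 0.000367). Summed endothelial markers were 17.9 to 22.8 CPM in shDNM1 and 16.9 to 20.2 CPM in shControl libraries, with KDR at 0 and CDH5 near 0. VWF was called higher at 1.41-fold (adjusted p 0.0490), while PECAM1, most of the sum, was not called (log2 -0.02, adjusted p 0.931). The part of these markers in the carrier results was not tested.

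The promoters of the 3 called carriers with the largest absolute log2 fold changes are shown first, and these genes do not all move in the same direction. Each window runs from 250 bases before to 50 bases after the RefSeq start (GRCh38.p14), and capitals mark the motif letters found by search on both strands. The SLC25A25 window lies at chr9:128067982-128068281 on the plus strand and is 1 of 3 RefSeq windows of that gene. The SLC25A4 window lies at chr4:185143016-185143315 and the SLC25A38 window at chr3:39383120-39383419, both on the plus strand.
SLC25A25: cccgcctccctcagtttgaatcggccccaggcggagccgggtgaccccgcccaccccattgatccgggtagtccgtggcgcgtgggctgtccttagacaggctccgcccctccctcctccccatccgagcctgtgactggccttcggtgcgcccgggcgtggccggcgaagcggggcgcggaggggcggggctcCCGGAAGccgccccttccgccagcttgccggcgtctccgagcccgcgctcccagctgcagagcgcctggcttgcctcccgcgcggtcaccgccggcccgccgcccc
SLC25A4: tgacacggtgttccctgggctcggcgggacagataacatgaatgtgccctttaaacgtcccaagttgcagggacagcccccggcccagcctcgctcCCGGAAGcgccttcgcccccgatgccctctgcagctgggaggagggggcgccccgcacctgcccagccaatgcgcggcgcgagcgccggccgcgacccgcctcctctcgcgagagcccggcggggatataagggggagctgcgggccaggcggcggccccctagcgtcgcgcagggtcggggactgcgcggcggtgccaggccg
SLC25A38: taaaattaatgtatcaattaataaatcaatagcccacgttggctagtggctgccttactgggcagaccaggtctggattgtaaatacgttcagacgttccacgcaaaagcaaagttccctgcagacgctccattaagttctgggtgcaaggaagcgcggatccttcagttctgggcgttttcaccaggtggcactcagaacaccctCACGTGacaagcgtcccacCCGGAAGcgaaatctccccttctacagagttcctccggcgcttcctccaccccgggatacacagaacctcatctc

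All 3 windows hold CCGGAAG, the core that ETS factors such as GABP bind, and the SLC25A38 window also holds the E box CACGTG bound by MYC and related factors. The other 2 SLC25A25 windows hold no searched motif, and neither do the windows of the lower carriers SLC25A23, SLC25A6 and SLC25A1. RefSeq windows were matched for 40 of the 48 members. CCGGAAG was present in 11 of these 40 genes (27.5%), against 16.5% of 15843 protein-coding genes. By call, it was present in 3 of 5 members called higher, 2 of 10 called lower, 5 of 19 not called and 1 of 6 not tested. CACGTG was present in 9 of 40 members (22.5%), against 10.9% of protein-coding genes. The palindromic NRF1 motif with its middle base left free was present in 5 members (12.5%), against 9.67% of protein-coding genes, and its exact form was present in 0 members, against 1.99%. The ATF4 element TGATGNAA was present in 1 member (2.5%), against 3.6%. These are matches of letters, with no test and no binding data, and the motifs do not overlap each other in the windows printed.

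Of the 39 carriers tested, 17 (43.6%) were called at an adjusted p under 0.05, where 31.9% of all tested genes were. In the libraries labelled shDNM1, 6 carriers were higher (15.4%, against 15.6% of all genes) and 11 were lower (28.2%, against 16.2% of all genes), and 22 were not called. Counts of the substrate groups below rest on few carriers each and are to be read against these shares of all genes. Only SLC25A25 was called with a change of at least 1.5-fold, which is 2.56% of the carriers tested, where 11.7% of all genes were called with a change of that size. The CPM of the groups did not overlap for 18 carriers (46.2%), where the same held for 44.3% of all genes. The median log2 fold change was -0.05 over the carriers and -0.01 over all genes, and the median absolute change was 0.21 and 0.24. The share of carriers higher was thus near that of all genes and the share lower was above it. That difference was not tested, and among the fits with 1 library left out it was smallest without shControl replicate 1. Without that library 5 of 39 carriers were lower (12.8%, against 11.8% of all genes). In either direction 20.5% of the carriers were then called, against 23.9% of all genes. With each other library left out, the share lower was 17.9% to 23.1% of carriers, against 12.1% to 17.1% of all genes.

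Scaling by library size alone gave 4 carriers higher and 13 lower, and limma-trend on log2(TPM + 1) gave 3 higher and 8 lower. In the TPM fit 28.2% of the carriers were called, against 27.8% of all genes, and 20.5% were lower, against 17.0% of all genes. The share lower was 33.3% with library size alone, against 18.5% of all genes. With DESeq2 it was 20.5%, against 13.3% of all genes. Of the 17 calls, 7 held under every one of 16 alternatives that change the scaling, filter, test, unit, block or libraries. These were SLC25A25 and SLC25A22, both higher, and SLC25A4, SLC25A38, SLC25A23, SLC25A6 and SLC25A1, all lower. The other 10 lost the call under at least 1 alternative, and none reversed.

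**Figure D1:**
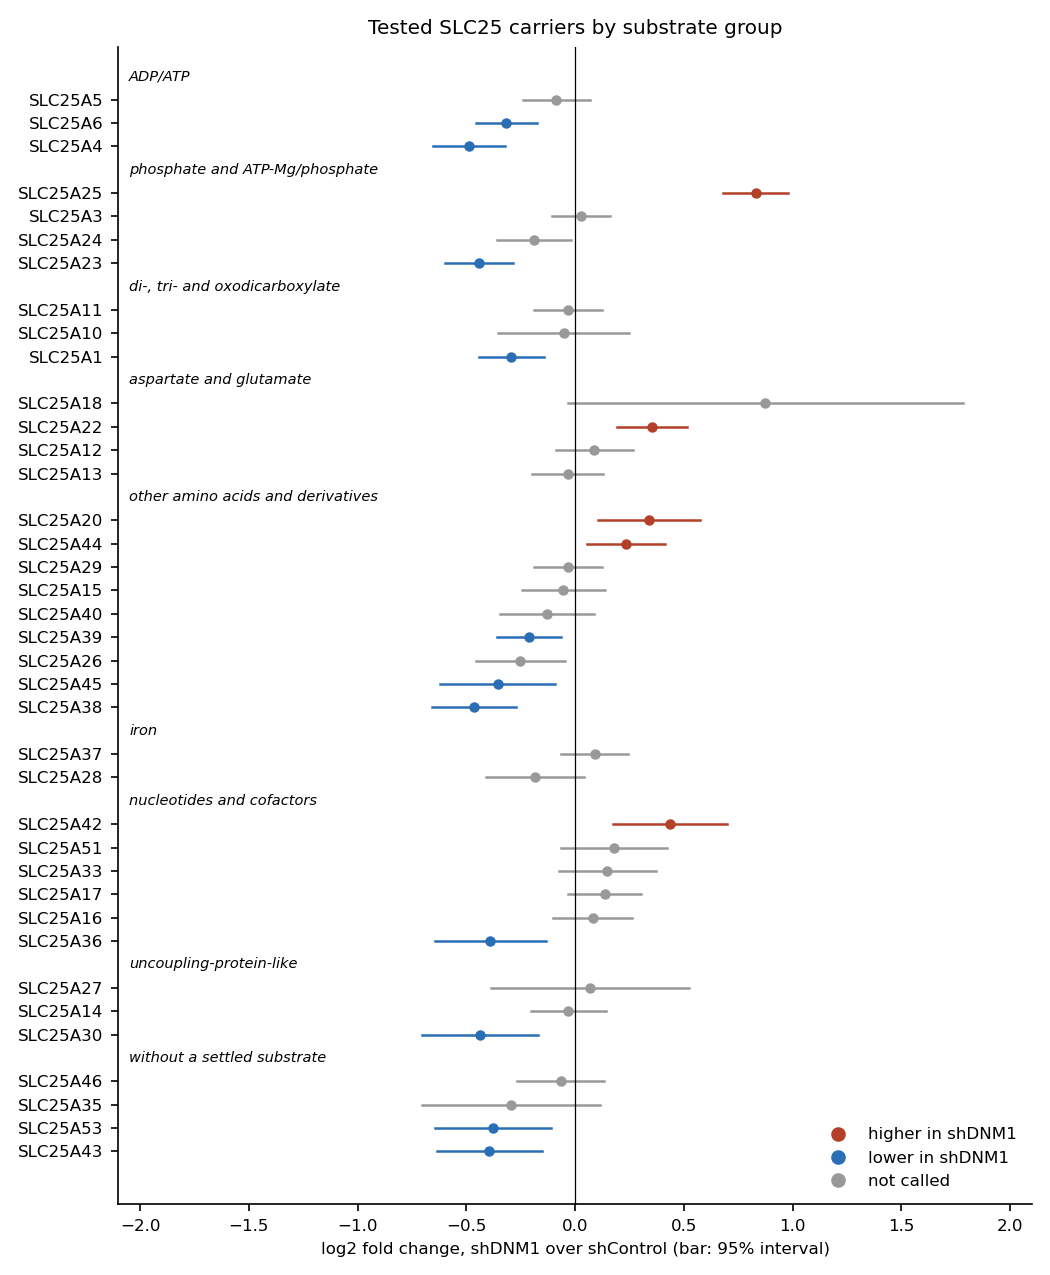
Log2 fold change (shDNM1 over shControl) with its 95% interval for the tested carriers described here, arranged by substrate group and coloured by call. SLC25A25 stands at 0.83, and all other called carriers lie between -0.49 and 0.44.

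The ADP/ATP carriers, which export ATP from the matrix in exchange for ADP, were the most abundant members, and 2 of the 3 tested were lower. SLC25A5 (ENSG00000005022, chromosome X, 119468422 to 119471396, plus strand) led the family at 939 ± 66.3 TPM in shDNM1 libraries and 1039 ± 54.0 TPM in shControl libraries (SD, n = 3), followed by SLC25A6 at 664 ± 39.3 TPM in shDNM1 libraries and 863 ± 6.32 TPM in shControl libraries. SLC25A4, the isoform best known from heart and muscle, stood far below both at 23.2 ± 1.48 TPM in shDNM1 libraries and 33.8 ± 0.995 TPM in shControl libraries. SLC25A31, the isoform of the male germ line, had 0 reads in all 6 libraries. The median log2 fold change of the 3 tested was -0.32, against -0.01 over all genes.

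SLC25A4 (ENSG00000151729, chromosome 4, 185143266 to 185150382, plus strand) had 36.7, 34.7 and 33.5 CPM in the libraries labelled shDNM1, against 47.0, 51.2 and 49.0 CPM in shControl. The groups did not overlap, and the log2 fold change was -0.49 (SE 0.0789, 0.713-fold, adjusted p 0.000113, 1.66e-06 to 0.00174 over the alternatives). SLC25A6 (ENSG00000169100, chromosome X, 1386152 to 1392113, minus strand) had 302, 360.1 and 328 CPM in the libraries labelled shDNM1, against 405, 419 and 408 CPM in shControl. Its groups did not overlap either, at -0.32 (SE 0.0667, 0.803-fold, adjusted p 0.0013, 1.38e-05 to 0.0106 over the alternatives). SLC25A5 had 385, 468 and 407 CPM in the libraries labelled shDNM1, against 427, 479 and 432 CPM in shControl. These groups overlapped, and the log2 fold change of -0.09 did not pass the test (adjusted p 0.398, 95% interval of the fold 0.846 to 1.05). In bulk RNA, fewer cells of a type and less RNA per cell cannot be told apart. These paralogs share coding sequence, so reads could be split between them, which was not tested. The pseudogene rows of SLC25A5 and SLC25A6 each held at most 14 reads in any library. That count does not bear on reads shared among the paralogs themselves.

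Summed over the 3 ADP/ATP carriers, the level was 1530, 1735 and 1614 TPM in shDNM1 libraries, against 1906, 2006 and 1897 TPM in shControl. Within that sum SLC25A5 made up 57.7%, 58.3% and 57.1% in shDNM1 libraries, against 53.0%, 54.9% and 53.1% in shControl. SLC25A6 made up 40.7%, 40.4% and 41.5% in shDNM1 libraries, against 45.3%, 43.3% and 45.1% in shControl. SLC25A4 made up 1.63%, 1.28% and 1.39% in shDNM1 libraries, against 1.73%, 1.74% and 1.78% in shControl. All 3 shares were apart between the groups, with SLC25A5 taking the larger part in shDNM1 libraries. The whole family summed to 3097, 3322 and 3255 TPM in shDNM1 libraries, against 3644, 3716 and 3597 TPM in shControl. The group means (shDNM1 minus shControl) differed by -427.5 TPM for the family and by -309.8 TPM for the ADP/ATP carriers within it. The median log2 fold change of all tested genes was -0.07 on log2(TPM + 1), against -0.01 on counts. Sums and shares are given without a test, since they were chosen after the values were seen.

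**Figure D2:**
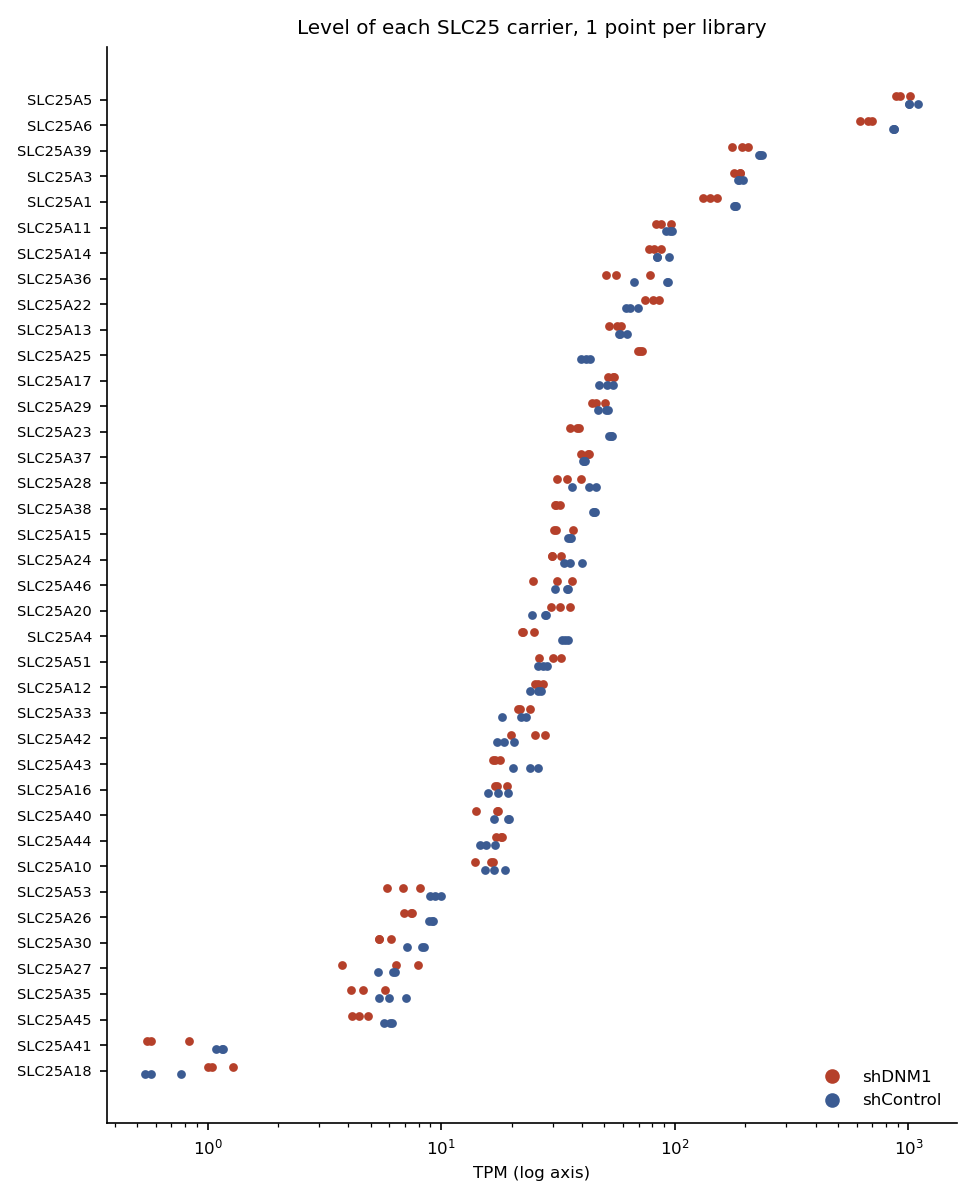
TPM of carriers described here in each library on a log axis, shDNM1 and shControl points in separate colours, ordered by mean level. Members with a mean of 0.491 TPM (SLC25A32) or less are not drawn. By the mean over all 6 libraries SLC25A5 (989.0 TPM) and SLC25A6 (764 TPM) lie far above SLC25A39 (212 TPM), SLC25A3 (188 TPM) and SLC25A1 (161 TPM), and SLC25A45 at 5.23 TPM is the lowest member above 1 TPM.

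Phosphate enters the matrix through SLC25A3, while SLC25A23, SLC25A24, SLC25A25 and SLC25A41 exchange ATP-Mg for phosphate and so set the adenine nucleotide pool of the matrix. SLC25A23, SLC25A24 and SLC25A25 are regulated by calcium. Of the 4 tested, SLC25A25 was higher and SLC25A23 lower in cells labelled shDNM1. SLC25A25 (ENSG00000148339, chromosome 9, 128068201 to 128109245, plus strand) had 90.6, 98.0 and 95.8 CPM in the libraries labelled shDNM1, against 50.3, 56.3 and 53.3 CPM in shControl. The lowest shDNM1 library was well above the highest shControl library. The change was 1.78-fold (95% interval 1.60 to 1.97, log2 0.83, SE 0.0711, adjusted p 8.42e-08), the largest among the called carriers, with 1.3e-22 to 8.59e-05 over the alternatives. Its promoter is the first of those printed above.

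SLC25A23 (ENSG00000125648, chromosome 19, 6436079 to 6465203, minus strand) had 41.5, 46.9 and 45.7 CPM in the libraries labelled shDNM1, against 59.9, 60.6 and 61.5 CPM in shControl. The groups did not overlap, and the level was 0.736-fold (log2 -0.44, SE 0.0750, adjusted p 0.000183, 4.65e-06 to 0.00177 over the alternatives). SLC25A24 had 46.0, 44.9 and 42.7 CPM in the libraries labelled shDNM1, against 48.9, 47.5 and 55.9 CPM in shControl, groups that did not overlap but did not pass the test (log2 -0.19, adjusted p 0.0862). It passed only when library size was the sole scaling, at an adjusted p of 0.0467. SLC25A41, which lies 2.3 kb from SLC25A23, had 4, 6 and 4 reads in shDNM1 libraries and 8 in each shControl library, too few to be tested. SLC25A3 (ENSG00000075415, chromosome 12, 98593591 to 98606379, plus strand), the main phosphate carrier, had 362, 409.6 and 389.6 CPM in the libraries labelled shDNM1, against 369, 397 and 374 CPM in shControl. The SLC25A3 groups overlapped (log2 0.03, adjusted p 0.79), and the sign turned under library size alone (-0.01) and log2(TPM + 1) (-0.03).

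Set against each other per length, SLC25A25 made up 50.5%, 51.1% and 51.4% of the summed TPM of SLC25A23, SLC25A24 and SLC25A25 in shDNM1 libraries, against 30.9%, 33.5% and 30.6% in shControl. SLC25A23 made up 25.9%, 27.4% and 27.5% in shDNM1 libraries, against 41.4%, 40.5% and 39.8% in shControl. SLC25A24 made up 23.6%, 21.5% and 21.1% in shDNM1 libraries, against 27.7%, 26.0% and 29.6% in shControl. The most abundant of these carriers was thus SLC25A25 in each shDNM1 library and SLC25A23 in each shControl library. Their summed level was 137.6, 138.7 and 141.2 TPM in shDNM1 libraries, against 128.4, 129.3 and 135.3 TPM in shControl. The ratio of SLC25A25 to SLC25A23 was 1.95, 1.86 and 1.87 in shDNM1 libraries, against 0.748, 0.827 and 0.771 in shControl, a description chosen after the values were seen and not tested. SLC25A25 shares 665 bases with SLC25A25-AS1 on the other strand, which averaged 51.7 ± 4.22 CPM in shDNM1 and 49.9 ± 2.93 CPM in shControl libraries (log2 0.05, adjusted p 0.674). SLC25A23 shares 1427 bases with CRB3 on the other strand, whose log2 fold change was -0.04 (adjusted p 0.771). Whether counting used strand is not given in the sources used here, so reads in such shared stretches are uncertain.

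**Figure D3:**
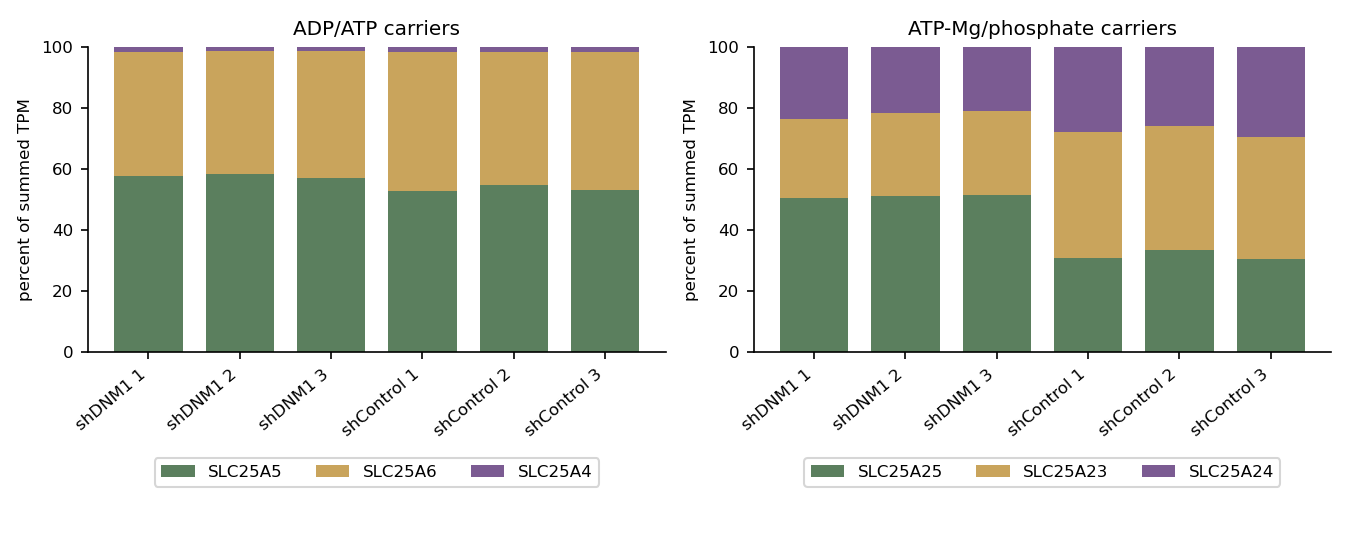
Share of each paralog in the summed TPM of the ADP/ATP carriers and of the calcium-regulated ATP-Mg/phosphate carriers, 1 stacked bar per library, shDNM1 bars left of shControl bars. SLC25A25 takes 50.5% to 51.4% in shDNM1 and 30.6% to 33.5% in shControl libraries.

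Carriers of dicarboxylates and tricarboxylates feed cytosolic citrate and malate, and 1 of the 3 tested was lower. SLC25A1 (ENSG00000100075, chromosome 22, 19175581 to 19178739, minus strand), which exports citrate for lipid synthesis, had 70.6, 79.6 and 81.9 CPM in the libraries labelled shDNM1, against 93.8, 96.6 and 94.1 CPM in shControl. The groups did not overlap, and SLC25A1 was 0.816-fold (log2 -0.29, SE 0.0706, adjusted p 0.00373, 0.000576 to 0.0188 over the alternatives). SLC25A11, the oxoglutarate and malate exchanger, averaged 66.0 ± 5.04 CPM in shDNM1 libraries and 67.5 ± 2.33 CPM in shControl libraries (log2 -0.03, adjusted p 0.776). SLC25A10, the dicarboxylate carrier, averaged 10.4 ± 1.22 CPM in shDNM1 libraries and 10.8 ± 1.02 CPM in shControl libraries (log2 -0.05, adjusted p 0.812). SLC25A21, the oxodicarboxylate carrier, had 0 to 2 reads per library.

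Aspartate and glutamate carriers gave 1 call of 4. SLC25A22 (ENSG00000177542, chromosome 11, 790475 to 798281, minus strand), which takes up glutamate with a proton, had 69.3, 79.7 and 80.7 CPM in the libraries labelled shDNM1, against 63.2, 57.5 and 58.9 CPM in shControl. Each shDNM1 library lay above each shControl library, at 1.28-fold (log2 0.35, SE 0.0767, adjusted p 0.00162, 3.45e-05 to 0.0177 over the alternatives). The aspartate/glutamate exchangers of the malate-aspartate shuttle did not pass the test, SLC25A13 at a log2 fold change of -0.03 (adjusted p 0.779) and SLC25A12 at 0.09 (adjusted p 0.455). SLC25A12 shares 61239 bases with HAT1 on the other strand, and HAT1 was itself higher (log2 0.30, adjusted p 0.0166). SLC25A18, the second glutamate carrier, had only 11, 14 and 11 reads in shDNM1 libraries and 8, 6 and 6 in shControl. Its groups did not overlap, but the fold of 1.83 had a 95% interval of 0.977 to 3.44 and an adjusted p of 0.135.

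Among 9 tested carriers of other amino acids and their derivatives, 2 were higher and 3 lower, with a median log2 fold change of -0.13. SLC25A38 (ENSG00000144659, chromosome 3, 39383370 to 39397351, plus strand), which brings glycine into mitochondria for heme synthesis, had 21.4, 24.0 and 22.0 CPM in the libraries labelled shDNM1, against 30.9, 31.4 and 30.8 CPM in shControl. The groups were well apart, at 0.725-fold (log2 -0.46, SE 0.0911, adjusted p 0.000707, 0.000159 to 0.00511 over the alternatives). SLC25A39 (ENSG00000013306, chromosome 17, 44319625 to 44324870, minus strand), which imports glutathione and was the third most abundant carrier, had 130.1, 153 and 154 CPM in the libraries labelled shDNM1, against 164, 174 and 169 CPM in shControl. Each shDNM1 value was below each shControl value, at 0.863-fold (adjusted p 0.0267, 0.0042 to 0.0898 over the alternatives). The SLC25A39 call was lost without shDNM1 replicate 1 (adjusted p 0.0733), shControl replicate 1 (adjusted p 0.0544), shControl replicate 2 (adjusted p 0.0898) or shControl replicate 3 (adjusted p 0.0712). SLC25A40, its close paralog, had a log2 fold change of -0.13 that did not pass the test (adjusted p 0.369).

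SLC25A20, which carries acylcarnitines into the matrix for fatty acid oxidation, had 21.1, 18.6 and 19.4 CPM in the libraries labelled shDNM1, against 16.0, 14.4 and 16.3 CPM in shControl. It was 1.26-fold (adjusted p 0.027, 0.0186 to 0.112 over the alternatives) with no overlap of the groups. Its call was lost without shDNM1 replicate 1 (adjusted p 0.0667), shControl replicate 1 (adjusted p 0.0518), shControl replicate 2 (adjusted p 0.112) or shControl replicate 3 (adjusted p 0.0541), and also with library size alone (0.0522), limma-trend on log2(TPM + 1) (0.0613) and limma-trend on log2(TPM + 0.1) (0.0605). SLC25A44, a carrier of branched-chain amino acids, averaged 42.2 ± 2.39 CPM in shDNM1 libraries and 35.9 ± 2.93 CPM in shControl libraries, at 1.18-fold (adjusted p 0.0456). This call had the highest adjusted p of the 17, and 10 of the 16 alternatives lost it (range 0.021 to 0.226). It was lost without shDNM1 replicate 2 (adjusted p 0.143), shDNM1 replicate 3 (adjusted p 0.0528), shControl replicate 1 (adjusted p 0.134) or shControl replicate 3 (adjusted p 0.226), and with upper quartile scaling (0.0588), library size alone (0.0818), no low-count filter (0.084), DESeq2 (0.0629), limma-trend on log2(TPM + 1) (0.224) and limma-trend on log2(TPM + 0.1) (0.213). SLC25A45 averaged 10.9 ± 0.589 CPM in shDNM1 libraries and 14.0 ± 0.740 CPM in shControl libraries, at 0.782-fold (adjusted p 0.0383, 0.0258 to 0.118 over the alternatives), and 9 alternatives lost the call. It was lost without shDNM1 replicate 2 (adjusted p 0.0846), shDNM1 replicate 3 (adjusted p 0.0864), shControl replicate 1 (adjusted p 0.0592), shControl replicate 2 (adjusted p 0.111) or shControl replicate 3 (adjusted p 0.118), and with no low-count filter (0.0686), DESeq2 (0.0911), limma-trend on log2(TPM + 1) (0.0881) and limma-trend on log2(TPM + 0.1) (0.0945).

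The remaining members of this group did not pass the test. SLC25A26, which takes up S-adenosylmethionine, was nearest, at a log2 fold change of -0.25 (adjusted p 0.0566) and without overlap of the groups. It passed with upper quartile scaling (0.0407) and library size alone (0.0280), and it shares 9320 bases with LRIG1 on the other strand, which was lower (log2 -0.71, adjusted p 0.000883). SLC25A15, the ornithine carrier of the urea cycle, had a log2 fold change of -0.05 (adjusted p 0.696), and SLC25A29, a carrier of basic amino acids, -0.03 (adjusted p 0.776). SLC25A2, the second ornithine carrier, had 0 reads in every library. Its whole length, 1415 bases, is shared with TAF7 on the same strand, and how such reads were assigned is not given.

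Neither mitoferrin, the carriers that bring iron to the matrix for heme and iron-sulfur clusters, passed the test. SLC25A37 had 61.8, 71.1 and 67.0 CPM in the libraries labelled shDNM1, against 62.5, 63.0 and 62.5 CPM in shControl, with a log2 fold change of 0.09 (adjusted p 0.38). SLC25A28 averaged 29.9 ± 3.71 CPM in shDNM1 libraries and 34.0 ± 3.98 CPM in shControl libraries, with a log2 fold change of -0.19 (adjusted p 0.202). Both pairs of groups overlapped.

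Among the tested carriers of nucleotides and cofactors described here, SLC25A42 was higher and SLC25A36 lower. SLC25A42, which takes up coenzyme A, had 21.7, 29.3 and 30.7 CPM in the libraries labelled shDNM1, against 18.2, 22.2 and 19.9 CPM in shControl. The lowest shDNM1 library lay below the highest shControl library, and the level was 1.35-fold (adjusted p 0.0121, 0.00011 to 0.0839 over the alternatives). The SLC25A42 call was lost without shDNM1 replicate 3 (adjusted p 0.0839) or shControl replicate 1 (adjusted p 0.0619), and with limma-trend on log2(TPM + 1) (0.0809) and limma-trend on log2(TPM + 0.1) (0.079).

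SLC25A36, a pyrimidine nucleotide carrier, had 151, 104 and 110.3 CPM in the libraries labelled shDNM1, against 175, 129 and 176 CPM in shControl. Replicate 1 was high among the shDNM1 libraries and replicate 2 low among the shControl libraries, so the groups overlapped. It was 0.763-fold (adjusted p 0.0192, 9.92e-07 to 0.203 over the alternatives), and the call was lost without shDNM1 replicate 2 (adjusted p 0.0841), shDNM1 replicate 3 (adjusted p 0.116), shControl replicate 1 (adjusted p 0.114) or shControl replicate 3 (adjusted p 0.0925), and with DESeq2 (0.203), limma-trend on log2(TPM + 1) (0.0913) and limma-trend on log2(TPM + 0.1) (0.0918). Its relative SLC25A33, also a pyrimidine nucleotide carrier, had a log2 fold change of 0.15 (adjusted p 0.311). SLC25A51, which imports NAD, had 0.18 (0.264), SLC25A17, a peroxisomal cofactor carrier, 0.14 (0.216), and SLC25A16 0.08 (0.525), each a log2 fold change with its adjusted p. SLC25A52 had 0 reads in all libraries. The folate and FAD carrier SLC25A32 had 5, 3 and 6 reads in shDNM1 and 8, 7 and 8 reads in shControl libraries, and it shares 476 bases with DCAF13 on the other strand.

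Of 3 tested members that resemble uncoupling proteins, SLC25A30 was lower, with 10.9, 11.6 and 12.5 CPM in the libraries labelled shDNM1, against 16.5, 16.6 and 14.1 CPM in shControl. The groups did not overlap, and the level was 0.739-fold (adjusted p 0.013, 0.00842 to 0.0598 over the alternatives). The call was lost without shControl replicate 1 (adjusted p 0.0598) or shControl replicate 2 (adjusted p 0.0559). SLC25A30 shares 24660 bases with TPT1-AS1 on the other strand, whose log2 fold change was 0.11 (adjusted p 0.505). SLC25A14, the most abundant of the 3 by TPM, had 50.7, 49.8 and 45.5 CPM in the libraries labelled shDNM1, against 47.0, 54.4 and 47.9 CPM in shControl, with overlapping groups (log2 -0.03, adjusted p 0.805). SLC25A27 averaged 5.99 ± 1.95 CPM in shDNM1 libraries and 5.73 ± 0.489 CPM in shControl libraries (log2 0.07, adjusted p 0.847).

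Of 4 tested members placed without a settled substrate, 2 were lower. SLC25A43 had 16.1, 15.9 and 15.4 CPM in the libraries labelled shDNM1, against 22.8, 21.5 and 18.0 CPM in shControl, without overlap, at 0.761-fold (adjusted p 0.014, 0.00697 to 0.0929 over the alternatives). It lies 13.9 kb from SLC25A5 on chromosome X, and its call was lost without shControl replicate 1 (adjusted p 0.0929) or shControl replicate 2 (adjusted p 0.0501). SLC25A53 had 12.1, 15.2 and 17.0 CPM in the libraries labelled shDNM1, against 20.0, 18.4 and 19.2 CPM in shControl, also without overlap, at 0.769-fold (adjusted p 0.0294, 0.0128 to 0.109 over the alternatives). It shares 3712 bases with ZCCHC18 on the other strand (log2 -0.22, adjusted p 0.371), and the call was lost without shDNM1 replicate 1 (adjusted p 0.109), shControl replicate 1 (adjusted p 0.103) or shControl replicate 3 (adjusted p 0.0683), and with DESeq2 (0.051), limma-trend on log2(TPM + 1) (0.0734) and limma-trend on log2(TPM + 0.1) (0.0722). SLC25A46, an outer membrane member that acts in mitochondrial shape, had 75.6, 54.4 and 65.7 CPM in the libraries labelled shDNM1, against 70.0, 63.8 and 71.3 CPM in shControl, with overlapping groups (log2 -0.07, adjusted p 0.638). SLC25A35 had a log2 fold change of -0.30 (adjusted p 0.27). SLC25A48 had 0 reads, SLC25A34 had 0 to 4 and SLC25A47 had 0 to 2 reads per library.

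**Figure D4:**
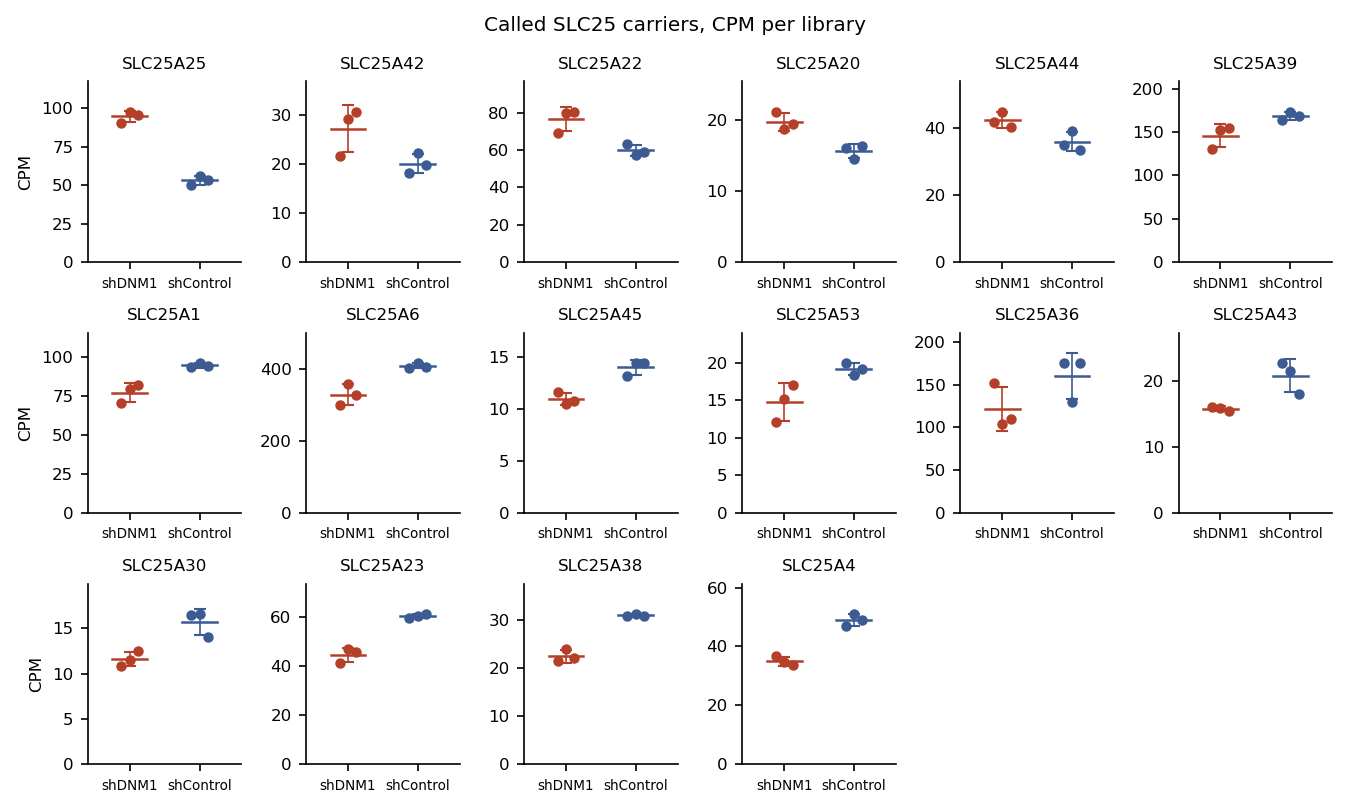
CPM of 16 called carriers in each library, shDNM1 left of shControl, with the group mean as a line and the SD as a bar (n = 3). The points of the groups overlap for SLC25A36 and SLC25A42 and are apart for the others drawn.

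Genes that work beside the carriers were counted in the same fit, from 5 lists of genes with known roles. Of 57 tested, 8 were higher and 11 lower (33.3% called, near the 31.9% of all genes), and their median log2 fold change was -0.01. Family members under other names gave 1 higher and 1 lower of 4, and the largest fall among the lists was theirs. UCP2, an uncoupling protein of the inner membrane, averaged 22.8 ± 1.56 CPM in shDNM1 libraries and 37.7 ± 2.73 CPM in shControl libraries (SD, n = 3), at 0.604-fold (adjusted p 9.93e-06, 4.3e-11 to 0.000226 over the alternatives). UCP3 averaged 1.30 ± 0.114 CPM in shDNM1 libraries and 2.05 ± 0.241 CPM in shControl libraries and did not pass the test (adjusted p 0.114), and UCP1 had 0 reads. MTCH2, an outer membrane insertase related to the carriers, was 1.15-fold (adjusted p 0.0279, 0.00682 to 0.155 over the alternatives), a call lost without shDNM1 replicate 2 (adjusted p 0.0833), shControl replicate 1 (adjusted p 0.107) or shControl replicate 3 (adjusted p 0.155), and with library size alone (0.0507), limma-trend on log2(TPM + 1) (0.0703) and limma-trend on log2(TPM + 0.1) (0.0732). Its relative MTCH1 was 1.08-fold (adjusted p 0.151).

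Import of carriers into the inner membrane gave 1 higher and 3 lower of 13 tested (30.8% called, against 31.9% of all genes). The median log2 fold change of the list was -0.02. TIMM13, a chaperone of the intermembrane space, was 0.820-fold (adjusted p 0.00883) and held under all 16 alternatives (0.00155 to 0.0429). TOMM22, a receptor of the outer membrane translocase, was 0.813-fold (adjusted p 0.00931, 0.000544 to 0.0685 over the alternatives), lost without shDNM1 replicate 3 (adjusted p 0.0685) or shControl replicate 2 (adjusted p 0.0548). TIMM10B was 0.833-fold (adjusted p 0.0146, 0.00668 to 0.0664), lost without shDNM1 replicate 3 (adjusted p 0.0557), shControl replicate 1 (adjusted p 0.0638) or shControl replicate 3 (adjusted p 0.0664). The channel TOMM40 was 1.15-fold (adjusted p 0.0287, 0.00188 to 0.15), lost without shDNM1 replicate 2 (adjusted p 0.112), shDNM1 replicate 3 (adjusted p 0.0655), shControl replicate 1 (adjusted p 0.072) or shControl replicate 3 (adjusted p 0.15), and with limma-trend on log2(TPM + 1) (0.0697) and limma-trend on log2(TPM + 0.1) (0.0729). TIMM22, which inserts carriers into the membrane, had a log2 fold change of -0.09 (adjusted p 0.529).

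Other membrane carriers gave 1 higher and 3 lower of 12 (33.3% called, against 31.9% of all genes), with a median log2 fold change of -0.03. SFXN2, a sideroflexin linked to iron handling, averaged 25.9 ± 1.71 CPM in shDNM1 libraries and 39.0 ± 2.14 CPM in shControl libraries, at 0.664-fold (adjusted p 5.26e-05, 6.9e-08 to 0.00486 over the alternatives). SFXN5 was 0.727-fold (adjusted p 0.0186, 0.00725 to 0.0929), lost without shDNM1 replicate 3 (adjusted p 0.0799), shControl replicate 1 (adjusted p 0.0929) or shControl replicate 2 (adjusted p 0.0828). MPC1, a subunit of the pyruvate carrier, was 0.800-fold (adjusted p 0.0157, 0.00471 to 0.0808), lost without shControl replicate 1 (adjusted p 0.0808). VDAC2, a pore of the outer membrane, was 1.16-fold (adjusted p 0.0132, 0.00238 to 0.0764), lost without shControl replicate 1 (adjusted p 0.0764) or shControl replicate 3 (adjusted p 0.0719).

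Among enzymes that hand substrates to carriers, ALAS1 was higher, and CS, IDH2, GLUD1 and CRAT were lower. ALAS1, which starts heme synthesis from glycine, averaged 135 ± 8.54 CPM in shDNM1 libraries and 101 ± 5.19 CPM in shControl libraries, at 1.33-fold (adjusted p 0.000165, 9.52e-07 to 0.00255 over the alternatives). Citrate synthase, CS, averaged 259 ± 21.7 CPM in shDNM1 libraries and 325 ± 4.93 CPM in shControl libraries, at 0.797-fold (adjusted p 0.000913, 1.05e-05 to 0.00577). IDH2 was 0.704-fold (adjusted p 0.00029, 8.72e-08 to 0.00327), GLUD1 0.841-fold (0.00299, 0.000555 to 0.0228) and CRAT 0.690-fold (0.00804, 0.000194 to 0.0495). These 5 calls held under all 16 alternatives. The citrate exporter SLC25A1 and the enzyme CS were both lower, while ACLY of the same list was not called (log2 -0.03, adjusted p 0.78). The glycine carrier SLC25A38 was lower and the enzyme ALAS1 higher. These pairings were picked after the values were seen and were not tested.

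Regulators of nuclear genes for mitochondria gave 3 higher of 11 and the other 8 not called (27.3% called, against 31.9% of all genes). Their median log2 fold change was 0.02. MYC averaged 613 ± 64.1 CPM in shDNM1 libraries and 414 ± 12.5 CPM in shControl libraries, at 1.48-fold (adjusted p 7.91e-06, 4.86e-17 to 0.000844 over the alternatives). ESRRA, a nuclear receptor of mitochondrial genes, was 1.33-fold (adjusted p 0.000162, 7.95e-07 to 0.00275). PPRC1 was 1.16-fold (adjusted p 0.0264, 0.00425 to 0.213), lost without shDNM1 replicate 2 (adjusted p 0.0641), shDNM1 replicate 3 (adjusted p 0.0879), shControl replicate 2 (adjusted p 0.0505) or shControl replicate 3 (adjusted p 0.213), and with library size alone (0.0545), limma-trend on log2(TPM + 1) (0.137) and limma-trend on log2(TPM + 0.1) (0.139). GABPA, an ETS factor whose core letters are those printed in the windows above, had a log2 fold change of 0.21 (adjusted p 0.136), and NRF1 -0.19 (adjusted p 0.143). TFAM had 0.02 (adjusted p 0.851), and PPARGC1A -0.39 (adjusted p 0.141). Protein amounts, carrier activity and the relation of any regulator to the carriers were not measured in these data.

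**Figure D5:**
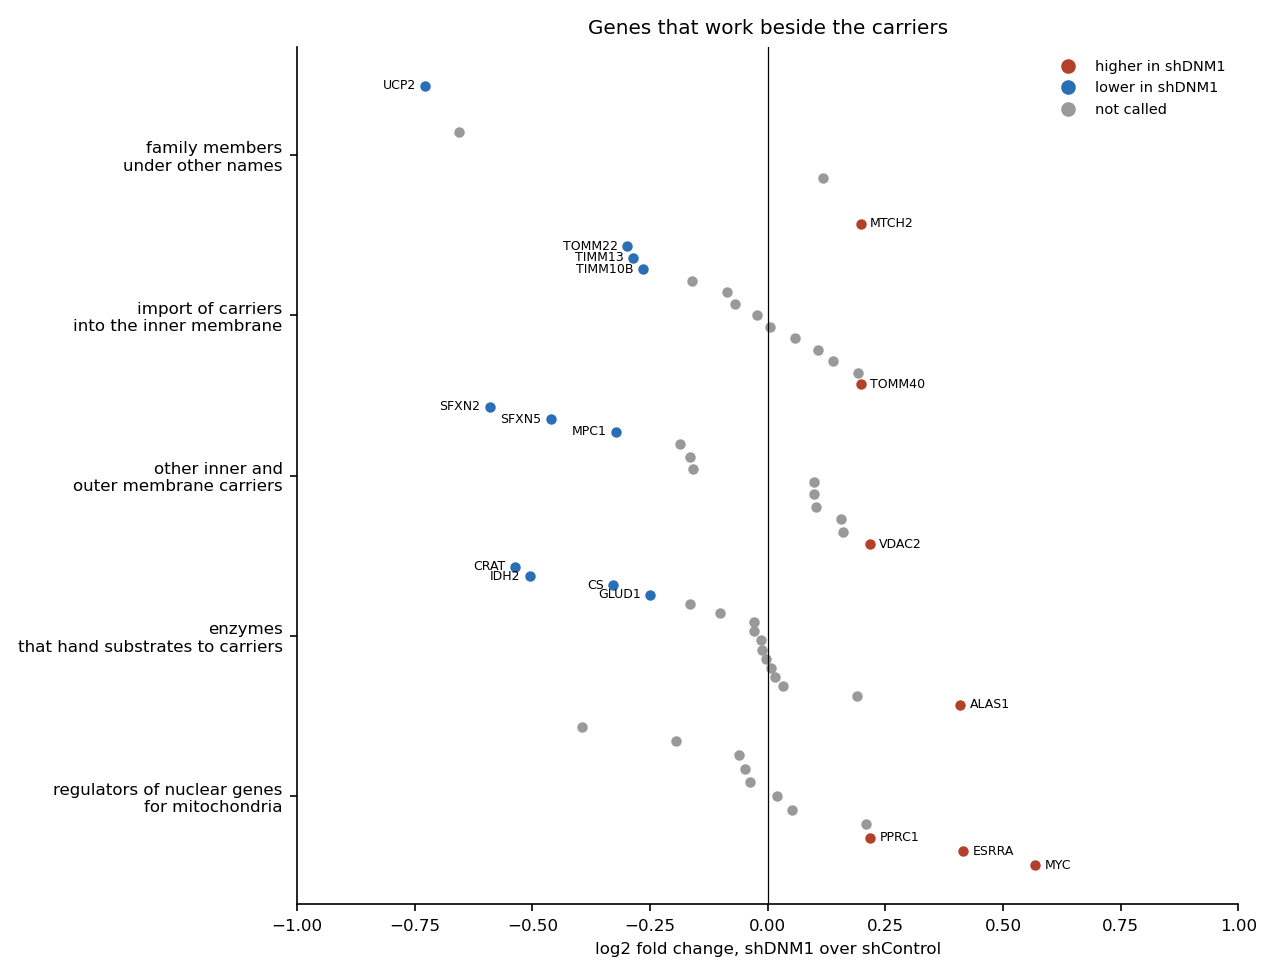
Log2 fold change (shDNM1 over shControl) of tested genes that work beside the carriers, arranged by list and coloured by call. UCP2 is lowest at -0.73 and MYC highest at 0.57.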

How the data were processed

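RNA of 6 SW620 libraries was sequenced, with group names from their titles. The labels' protocols name RNeasy for RNA and a SMARTER mRNA-seq kit for libraries. The deposited counts are whole numbers of reads for each gene without normalisation, made by the authors on GRCh38 per the submitters' processing notes. Aligner, counter, annotation release and use of strand: not given in the sources used here. The authors' deposited TPM values were handled as a score, because repeated lines make the columns sum to more than 1000000, which is their sum over unique names. Of 62710 lines per table, 2328 repeated 453 names. Keeping 1 line a name left 60835. No column of the tables was left unused (0 columns).

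Counts were fitted with edgeR 4.0.16 in R 4.3.3 over all 6 libraries (filterByExpr defaults, TMM scaling, two-sided glmQLFTest). Adjusted p-values are Benjamini-Hochberg over 16744 tested genes, with a threshold of 0.05. Common biological variation (BCV) was 0.0743. CPM use TMM-scaled libraries, SD are over 3 libraries, and SE come from the fitted coefficient and its F statistic. Levels of different carriers were compared on TPM only, which are per length, while the marker lists were summed in CPM, which are not. Library totals of 12844534 to 13537519 counts set the precision, and members under about 10 reads per library were not testable.

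Called members were named with their fold (the results of some single genes are not reported here), and values per library were given for called members changed at least 1.5-fold, the ADP/ATP carriers and the most abundant member of each substrate group. Further members were given per library where a result turns on them. Members, lists, tests and alternatives were chosen with earlier results of these data known. As alternatives, scaling was by RLE, by upper quartile or by library size, the filter was dropped or set to 1 CPM in 3 libraries, and the test was DESeq2 1.42.0, limma-voom or limma-trend (limma 3.58.1), the last on log2(TPM + 0.1) and log2(TPM + 1). Another threshold of 0.01, a block on the replicate number and the omission of single libraries were also tried. Python 3.11.15 (pandas 2.3.3, numpy 2.4.6, matplotlib 3.10.9) made the tables and plots. Promoter windows are from RefSeq. Protein sequences were not used here.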

Additional observations from a re-analysis of the deposited data

How the results depend on the processing

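Under the 16 alternatives the 17 called carriers kept their direction, and 7 kept their call. Carriers called higher, 6 by default, numbered 3 with log2(TPM + 1) and 3 with log2(TPM + 0.1), 2 at a threshold of 0.01, and 3 to 5 when each library was left out, with 3 without shControl replicate 1 or 3. Carriers called lower, 11 by default, numbered 5 at 0.01 and 5 to 9 when each library was left out, with 5 without shControl replicate 1 and 7 without shControl replicate 2 or 3. All genes at 0.01 gave 1739 higher and 1764 lower, against 2617 and 2720. With log2(TPM + 1) the split of all calls was 1801 higher and 2846 lower (38.8% higher, against 49.0%). Companion genes higher numbered 5 and 5 with the TPM fits, 4 at 0.01 and 4 to 13 with libraries left out, the 13 without shDNM1 replicate 1, and those lower numbered 8 to 13. Signs turned only for changes that did not pass the test: SLC25A3 (-0.0101 with library size alone, -0.0326 and -0.0327 with the TPM fits, -0.0156 to 0.0743 with libraries left out), SLC25A27 (-0.0303 and -0.0438 with the TPM fits, -0.159 to 0.296) and SLC25A25-AS1 (-0.00780 and -0.00824 with the TPM fits, -0.00571 to 0.111). With libraries left out the log2 fold change also changed sign for SLC25A10 (-0.126 to 0.0387), SLC25A11 (-0.0822 to 0.0274), SLC25A13 (-0.102 to 0.0320), SLC25A14 (-0.0646 to 0.0349), SLC25A15 (-0.173 to 0.0122), SLC25A29 (-0.0743 to 0.0262) and SLC25A46 (-0.183 to 0.0475). DNM1 ran from -0.205 to -0.0373 and passed the test only without shDNM1 replicate 1. The causes were not tested, except that fits with a library left out rest on fewer libraries. The correlations of the deviations of same-numbered libraries were 0.0957, 0.0586 and -0.0307, against -0.0915 to 0.0305 for libraries of different numbers. Whether the numbers mark pairs cannot be told from these values. The replicate block gave 6080 genes called (36.3%), against 5337 (31.9%) by default. With the replicate block, 6 carriers were higher and 12 lower, which are the 17 calls and SLC25A26 (adjusted p 0.0484). Depth limits members with few reads, such as SLC25A18.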

Other observations

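SLC25A25 and DNM1 lie on the same strand of chromosome 9, and SLC25A25 ends 82.4 kb before DNM1 starts (GRCh38). Among 10 other genes that touch the interval from the start of SLC25A25 to the end of DNM1, 6 were tested and 1 was called (16.7%, where 31.9% of all genes were). That gene was CIZ1, a nuclear matrix protein with a role in DNA replication, which is named after its value was seen. CIZ1 (chromosome 9, 128161251 to 128204383, minus strand) overlaps the start of DNM1 (128191655 to 128255248, plus strand). It averaged 50.3 ± 5.98 CPM in the libraries labelled shDNM1 and 89.8 ± 3.40 CPM in shControl libraries (SD, n = 3), at 0.560-fold (log2 -0.84, adjusted p 4.57e-07, edgeR quasi-likelihood test, 7.66e-23 to 0.000352 over the alternatives). The other 5 tested genes had log2 fold changes that did not pass the test, among them PTGES2 at 0.06 (adjusted p 0.504), BBLN at 0.22 (adjusted p 0.129) and NAIF1 at 0.20 (adjusted p 0.372). Whether counting used strand is not given, so reads in the stretch that CIZ1 and DNM1 share are uncertain for both genes.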
